A study of Mus musculus with 12 samples.

Results

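The unfolded protein response and the translocation of proteins into the endoplasmic reticulum (ER) were followed through 35 genes, which were listed by symbol for their known roles, by a rule that uses no measured value, out of 38887 genes in the tables. They fall into 15 folding genes (chaperones, their partners and disulfide enzymes), 4 sensors with their transcription factor, 6 degradation genes and 10 translocation genes. RNA-Seq was performed in bone marrow-derived macrophages (BMMs) from mice 3 to 4 months old, cultured with M-CSF. M0 cells received nothing further, and M2 cells were exposed for 8 h to IL-4 at 20 ng/ml. Knockout (KO) mice carried Igf2bp2 with loxP sites around exons 4 and 5 together with Cre recombinase from the Lyz2 locus, so that deletion was directed to myeloid cells. Wild-type (WT) mice were littermates without floxed alleles, some of which carried Cre. The groups WT M0, KO M0, WT M2 and KO M2 held 3 libraries each, 12 in all, and M-CSF was common to all of them. Littermates were matched for sex and age, and the sex behind each library is not given in the sources used here.

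Proteins destined for secretion or for membranes enter the ER through the Sec61 channel, lose their signal peptide and are folded by chaperones and disulfide isomerases. When unfolded proteins accumulate, the chaperone BiP leaves the sensors IRE1, PERK and ATF6. IRE1 then splices the mRNA of XBP1, PERK slows translation, and ATF6 is cut to release a transcription factor. ATF6 and spliced XBP1 raise chaperones and the machinery that returns misfolded proteins to the cytosol for degradation. Counts per gene measure the amount of mRNA, and neither Xbp1 splicing nor the cleavage of ATF6 was measured here.

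Levels were compared between genes as TPM, which corrects for gene length. In WT M0 the 35 genes took 0.729% of all TPM, with a sum of 7287 ± 183 TPM (SD, n = 3), of which the folding genes held 5305 ± 179 TPM. Calr, the calcium-binding chaperone calreticulin, was the most abundant of them with 1274 ± 114 TPM and rank 111 among all genes. It was followed by Hspa5, which encodes BiP, with 681 ± 27.1 TPM and by Hsp90b1, the ER form of HSP90, with 609 ± 37.7 TPM. The sensors were far lower. Ern1, which encodes IRE1, reached 16.6 ± 3.13 TPM and Eif2ak3, which encodes PERK, 14.3 ± 0.872 TPM, while Xbp1, the target of IRE1, reached 123 ± 7.14 TPM. Among the degradation genes, TPM in WT M0 ran from 25.6 ± 5.87 for Herpud1, a membrane protein of the degradation complex, to 109 ± 6.25 for Edem1, which delivers misfolded glycoproteins for degradation. Among the translocation genes they ran from 53.7 ± 0.333 for Ssr1 to 254 ± 2.88 for Spcs1, a subunit of signal peptidase, if Sec61g is left aside.

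**Figure D1:**
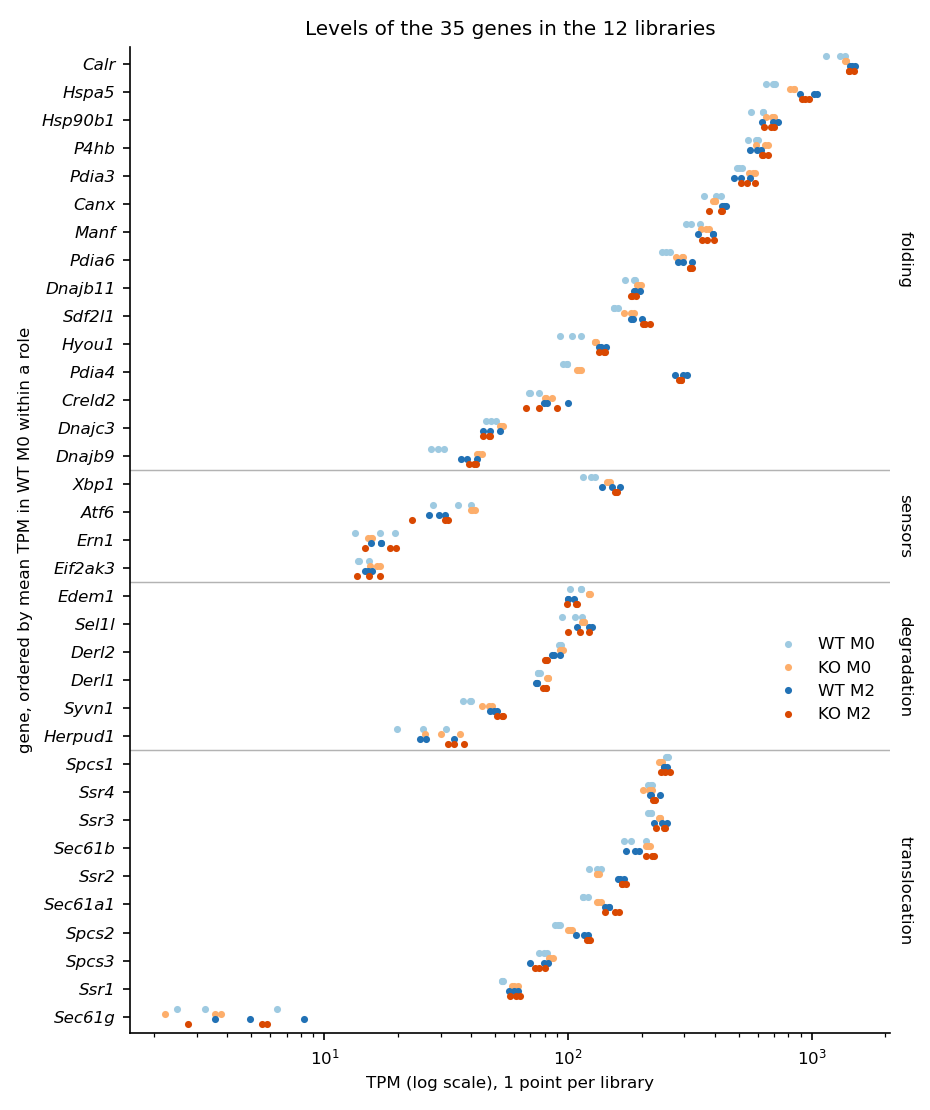
TPM of each gene (log axis) in the 12 libraries, 1 point per library, with genes grouped by role and ordered by their mean in WT M0. Calr lies highest at 1274 TPM on average in WT M0, Pdia4 is separated by treatment in both genotypes, and Sec61g lies lowest.

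Sec61g, the smallest subunit of the channel, was listed at 2.21 to 8.27 TPM in the 12 libraries, although the other subunits of the channel, Sec61a1 and Sec61b, stood at 117 ± 3.25 and 186 ± 19.5 TPM in WT M0. The transcribed processed pseudogene Gm10177 was listed at 250 to 326 TPM. Of the 370 different stretches of 75 bases in its annotated transcript, 346 (93.5%) also occur in Sec61g transcripts, so that reads of this length cannot tell the copies apart there and the level of Sec61g is uncertain. These 346 are 13.7% of the 2527 different stretches of Sec61g itself. Sec61b shared 10.1% of its 75-base stretches with other genes, Derl1 3.88%, Dnajb9 2.55%, Hsp90b1 1.73% and Spcs2 1.16%, and the remaining 29 genes shared 0. Some exons overlap genes on the opposite strand, among them 252 bases of Spcs1 with Glt8d1 and 91 bases of Syvn1 with Mrpl49. The library kit keeps the strand, but how strand was used in counting is not given in the sources used here.

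Genes of this response are known to carry the ER stress response element (ERSE) in their promoters, a CCAAT box followed after a fixed spacer by CCACG. RefSeq promoter windows on GRCm38.p6, reaching from 250 bases before to 50 bases after a start site, were found for 28 of the 35 genes, and were searched on both strands. None was at hand for Hyou1, Manf, Atf6, Derl1, Sec61a1, Ssr2 and Spcs3. The ERSE (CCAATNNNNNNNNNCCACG) was present in 8 of these 28 genes (28.6%), against 37 of 27025 genes with a window (0.137%). Its CCACG part, which every ERSE also contains, was present in 22 of 28 genes (78.6%) and in 35.5% of all genes. ERSE-II (ATTGGNCCACG), which contains the same CCACG, was found in Dnajb11 and Herpud1, and in 0.0444% of all genes. UPRE (TGACGTGG) was found in 0 of 28 genes and 0.714% of all genes, and the STAT6-type site (TTCNNNNGAA) in Sec61g alone and in 8.01% of all genes. A match of letters does not show that a factor binds. The ERSE matches are shown because their spacers differ while both boxes are fixed by the search. They are written from CCAAT to CCACG with these boxes in capitals and with their position on GRCm38.p6.
Hspa5, chr2:34772025-34772043: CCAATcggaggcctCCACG
Hsp90b1, chr10:86705638-86705656: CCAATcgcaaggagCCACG
Hsp90b1, chr10:86705533-86705551: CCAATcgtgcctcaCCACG
Calr, chr8:84847075-84847093: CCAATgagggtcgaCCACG
Canx, chr11:50325800-50325818: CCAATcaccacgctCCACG
Pdia6, chr12:17266491-17266509: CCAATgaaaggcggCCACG
Creld2, chr15:88819520-88819538: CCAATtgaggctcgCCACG
Dnajc3, chr14:118937827-118937845: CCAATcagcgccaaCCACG
Syvn1, chr19:6046532-6046550: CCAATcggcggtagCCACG
The sites of Calr and Creld2 and the second one of Hsp90b1 lie on the strand opposite to the gene. Hsp90b1 was the only one of the 28 genes with 2 of them. The ends of the sites lay 25 bases (Syvn1) to 193 bases (Hsp90b1) before the start site.

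Windows of 3 genes are given for comparison with the measurements that follow, namely those of Syvn1 and Canx with an ERSE and that of Pdia4, which had none and changed most with IL-4. Each shows the 250 bases before the start site in the direction of the gene, where GENCODE M21 annotates 0 exon bases, and capitals mark the ERSE.
Syvn1, plus strand, chr19:6046326-6046575: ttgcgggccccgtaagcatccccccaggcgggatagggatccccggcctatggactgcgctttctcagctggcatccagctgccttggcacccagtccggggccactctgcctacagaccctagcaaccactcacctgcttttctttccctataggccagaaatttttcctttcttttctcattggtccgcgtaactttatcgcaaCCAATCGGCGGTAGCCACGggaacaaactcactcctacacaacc
Canx, minus strand, chr11:50325674-50325923: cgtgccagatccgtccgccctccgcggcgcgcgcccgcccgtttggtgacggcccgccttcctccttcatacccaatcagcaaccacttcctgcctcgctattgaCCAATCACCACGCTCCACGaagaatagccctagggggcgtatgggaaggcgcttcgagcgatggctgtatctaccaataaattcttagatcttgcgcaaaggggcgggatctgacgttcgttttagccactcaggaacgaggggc
Pdia4, minus strand, chr6:47813513-47813762: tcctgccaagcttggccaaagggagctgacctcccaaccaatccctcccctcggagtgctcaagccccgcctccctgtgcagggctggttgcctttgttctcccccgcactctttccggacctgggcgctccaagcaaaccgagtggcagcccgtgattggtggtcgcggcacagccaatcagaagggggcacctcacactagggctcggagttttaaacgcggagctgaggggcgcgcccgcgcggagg
In the Pdia4 window the single CCACG lies after the RefSeq start site and is therefore not among the bases shown. In GENCODE M21 the Syvn1 gene spans chr19:6046576-6053712 and the Pdia4 gene chr6:47796141-47813430. The whole Pdia4 window, chr6:47813463-47813762, thus lies before the GENCODE start of that gene. Bases between the window and that start were not searched.

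Libraries contained 20011792 to 39632770 expected counts in total, and all 35 genes passed the filter on low counts, as did 12846 genes in all. Macrophage markers were high in every library, at a sum of 3485 to 4309 TPM for 7 genes, although Mertk among them reached only 1.85 to 3.3 TPM. They did not move together with IL-4. Log2 fold changes in WT and KO were -3.09 and -2.86 for Cd14, and -1.03 and -1.14 for Fcgr1. They were 0.64 and 0.51 for Adgre1, and 0.17 and 0.19 for Csf1r. Itgam and Mertk were called higher in WT only, and Cd68 in neither genotype. The 4 markers of the IL-4 response summed to 60.6 to 113 TPM in M0 and 6123 to 7578 TPM in M2. Plasma cells are rich in ER, but of their markers Jchain, Mzb1 and Cd79a were at or below 0.25 TPM in all libraries, whereas Sdc1 was at 61 to 113 TPM in M0 and 10.5 to 12.1 TPM in M2 and fell with IL-4 in WT (log2 fold change -2.54, edgeR adjusted p = 6.88e-09) and KO (-3.00, edgeR adjusted p = 1.22e-09). Zbtb46 of dendritic cells rose with IL-4 from 0.278 to 1.63 CPM in WT (edgeR adjusted p = 1.32e-05) and from 0.297 to 1.60 CPM in KO (edgeR adjusted p = 9.23e-06), and S100a9 of neutrophils fell in WT from 4.31 to 2.56 CPM (edgeR adjusted p = 0.0485), a call lost in 4 of 6 fits without 1 library. The part of these markers in the changes with IL-4 was not tested. Markers of dendritic cells, of mast cells and basophils, and of T and NK cells summed to at most 1.05, 0.65 and 0.06 TPM. Counts of the whole Igf2bp2 gene include the exons that remain and do not check the deletion, and they were 76.5 to 118 CPM in WT M0, 84.9 to 95.9 CPM in KO M0, 178 to 233 CPM in WT M2 and 129 to 146 CPM in KO M2. In bulk RNA fewer expressing cells and less RNA per cell cannot be told apart.

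IL-4 raised 21 of the 35 genes in WT macrophages and lowered 0. The folding genes led with 12 of 15, followed by 5 of 10 translocation genes, 2 of 4 sensors and 2 of 6 degradation genes. The median log2 fold change of the 35 genes was 0.217, beside -0.008 over all genes tested, and the range was -0.167 to 1.65. Calls rest on edgeR's quasi-likelihood test at an adjusted p under 0.05, by which 24.9% of all genes tested rose and 25.1% fell. Of the genes with an ERSE, 7 of 8 rose, and of the genes with a window but no ERSE, 10 of 20 rose. Those 20 include Dnajb11 and Herpud1, which hold an ERSE-II. They also include Dnajb9, Pdia3 and Spcs1, whose 250 bases before the start site are all annotated exon. Of 9 tested genes outside the 35 that hold an ERSE, 2 rose and 2 fell. WT M2 library 1 was the lowest of its group for 30 of the 35 genes. Without it 22 genes were called higher, beside 21.8% of all genes. On both log2(TPM) scales the calls of Canx, Dnajb11, Eif2ak3, Hsp90b1 and Sel1l were lost.

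Pdia4, a disulfide isomerase that works with BiP, changed most. It was counted at 128, 129 and 132 CPM in WT M0 and at 380.3, 429.8 and 410.1 CPM in WT M2, and at 149.7, 145 and 149 CPM in KO M0 and 418, 402 and 404 CPM in KO M2. Treated and untreated libraries were thus far apart in both genotypes. Its log2 fold change was 1.65 in WT (SE 0.05, edgeR adjusted p = 4.2e-11) and 1.46 in KO (SE 0.05, edgeR adjusted p = 1.01e-10), that is 3.14-fold and 2.76-fold.

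Hspa5 was counted at 927, 871 and 975 CPM in WT M0, at 1261, 1435 and 1470 CPM in WT M2, at 1097, 1158 and 1160 CPM in KO M0 and at 1452, 1311 and 1293 CPM in KO M2. Each M2 group lay above its M0 group without overlap, and the lowest values of all were those of WT M0. With IL-4 it rose on the log2 scale by 0.59 in WT (SE 0.07, edgeR adjusted p = 1.11e-05) and 0.25 in KO (SE 0.07, edgeR adjusted p = 0.00711). Hyou1, a large chaperone that exchanges the nucleotide of BiP, was counted at 254, 239 and 229 CPM in WT M0 and 324, 336 and 338 CPM in WT M2, and at 296, 304 and 299 CPM in KO M0 and 341, 342.5 and 338 CPM in KO M2. The KO M0 libraries stood between the WT M0 and WT M2 libraries. The change with IL-4 was 0.47 in WT (SE 0.04, edgeR adjusted p = 2.02e-06) and 0.18 in KO (SE 0.04, edgeR adjusted p = 0.00339).

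Dnajb9, a J-domain protein that helps BiP to bind IRE1, was counted at 29.6, 26.6 and 30.3 CPM in WT M0, at 39.7, 37.6 and 43.8 CPM in WT M2, at 41.6, 42.8 and 44.2 CPM in KO M0 and at 45.7, 40.2 and 42.7 CPM in KO M2. The WT M0 group lay below the other 3 groups, which overlapped each other. With IL-4 it rose in WT by 0.49 (log2, SE 0.07, edgeR adjusted p = 1e-04), and in KO the difference was -0.00 (SE 0.07, edgeR adjusted p = 0.976). Sdf2l1, a partner of J-domain proteins and BiP, was counted at 87.9, 86.4 and 91.6 CPM in WT M0, 107, 110 and 119 CPM in WT M2, 95.8, 107 and 105 CPM in KO M0 and 136, 119.9 and 123 CPM in KO M2. Treated libraries lay above untreated ones in both genotypes. It rose by 0.34 in WT (SE 0.06, edgeR adjusted p = 0.000556) and 0.30 in KO (SE 0.06, edgeR adjusted p = 0.00112). P4hb, the classical disulfide isomerase, was counted at 635, 655 and 712 CPM in WT M0, 679, 717 and 768.5 CPM in WT M2, 769, 800.1 and 790.1 CPM in KO M0 and 802, 786 and 795 CPM in KO M2. Its WT groups overlapped. The log2 difference with IL-4 in WT was 0.11 (SE 0.05, edgeR adjusted p = 0.101), but with the mouse as a block the adjusted p was 0.0189.

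The other folding genes that rose in WT were Creld2, a disulfide isomerase induced in ER stress, Manf, a secreted protective factor, Pdia6, another disulfide isomerase, the lectin chaperones Calr and Canx, Hsp90b1 and Dnajb11, a cofactor of BiP. Their log2 fold changes ran from 0.12 (Dnajb11) to 0.34 (Creld2). Some calls rested on single libraries. Dnajb11 was not called without WT M0 library 1 or 3 or WT M2 library 2 or 3, Manf not without WT M0 library 1 or 2 or WT M2 library 2 or 3, and Creld2 not without WT M0 library 1 or 2 or WT M2 library 3, with edgeR adjusted p up to 0.0994, 0.0634 and 0.132. Calr, Canx and Pdia6 also rose in KO, by 0.16, 0.13 and 0.23 (edgeR adjusted p = 0.0287, 0.0287 and 0.00519). The calls of Calr and Canx in KO were each lost in 4 of 6 fits without 1 library, with adjusted p up to 0.117 and 0.129. Pdia3, the isomerase for glycoproteins, and Dnajc3, a J-domain protein that also inhibits PERK, did not pass the test in either genotype, with differences of 0.09 and 0.06 in WT and 0.00 and -0.11 in KO.

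Of the sensors, Xbp1 was counted at 126, 119 and 144 CPM in WT M0, 151, 166 and 177 CPM in WT M2, 151.5, 158 and 159 CPM in KO M0 and 182, 174 and 173 CPM in KO M2. It rose by 0.34 in WT (SE 0.07, edgeR adjusted p = 0.00134), and its change in KO was 0.17 (SE 0.07, edgeR adjusted p = 0.0537, with the mouse as a block 0.0131). Eif2ak3 was counted at 35.45, 32.9 and 34.3 CPM in WT M0, 36.1, 38.45 and 38.4 CPM in WT M2, 39.4, 39.95 and 37.8 CPM in KO M0 and 35.9, 39.4 and 37.1 CPM in KO M2. The groups of WT did not overlap, yet the gap was small, at 0.14 on the log2 scale (SE 0.05, edgeR adjusted p = 0.0483) that did not pass with the mouse as a block (adjusted p = 0.0532) or in 4 of 6 fits without 1 library. In KO, Ern1 rose by 0.31 (SE 0.09, edgeR adjusted p = 0.0112) and Atf6 fell by 0.42 on the log2 scale (SE 0.11, edgeR adjusted p = 0.006). In WT the same genes differed by 0.06 (SE 0.09, edgeR adjusted p = 0.626) and -0.17 (SE 0.11, edgeR adjusted p = 0.24), but Atf6 was called lower in WT without WT M0 library 3.

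Among the degradation genes, Syvn1, which encodes the ubiquitin ligase HRD1, was counted at 66.5, 61.8 and 69.8 CPM in WT M0, 87.5, 83.3 and 87.9 CPM in WT M2, 82.0, 80.8 and 78.1 CPM in KO M0 and 97.6, 93.5 and 95.6 CPM in KO M2. The 4 groups did not overlap, in the order WT M0, KO M0, WT M2 and KO M2. IL-4 raised it by 0.39 in WT (SE 0.05, edgeR adjusted p = 3.68e-05) and 0.25 in KO (SE 0.05, edgeR adjusted p = 0.000904). Sel1l, the scaffold on which HRD1 acts, was counted at 233, 223 and 200.2 CPM in WT M0, 244, 257 and 262 CPM in WT M2, 237, 239 and 235 CPM in KO M0 and 229, 254 and 244 CPM in KO M2. WT M0 lay below KO M0 and WT M2 but overlapped KO M2, and KO M0 and KO M2 overlapped too. The log2 fold change in WT was 0.22 (SE 0.06, edgeR adjusted p = 0.00803) against 0.03 in KO (SE 0.06, edgeR adjusted p = 0.666). Edem1 was counted at 351, 357 and 340.4 CPM in WT M0, 334.5, 335 and 353 CPM in WT M2, 386, 393 and 398 CPM in KO M0 and 349, 357 and 366 CPM in KO M2. KO M0 lay above the other groups. IL-4 lowered Edem1 in KO, by -0.14 on the log2 scale (SE 0.04, edgeR adjusted p = 0.0125), and the difference in WT was -0.04 (SE 0.04, edgeR adjusted p = 0.496). Derl1, Derl2 and Herpud1 did not pass the test with IL-4 in either genotype, although Herpud1 in KO had an adjusted p of 0.0123 with the mouse as a block (without it, edgeR adjusted p = 0.148). Derl1 and Derl2 are part of the channel through which proteins leave the ER.

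In translocation, Sec61a1, the pore subunit, was counted at 195, 190 and 201 CPM in WT M0, 246, 258 and 257 CPM in WT M2, 220.3, 229.5 and 222 CPM in KO M0 and 263, 281 and 272 CPM in KO M2. The groups were again ordered WT M0, KO M0, WT M2 and KO M2 without overlap. The change with IL-4 was 0.38 in WT (SE 0.04, edgeR adjusted p = 1.05e-05) and 0.28 in KO (SE 0.04, edgeR adjusted p = 0.000113). Spcs2, a signal peptidase subunit, was counted at 134, 132 and 147 CPM in WT M0, 170.2, 184 and 191 CPM in WT M2, 153, 153 and 159 CPM in KO M0 and 205, 187 and 194 CPM in KO M2. Ssr2, 1 of the 4 subunits of the translocon-associated protein (TRAP) complex, was counted at 71.0, 77.8 and 85.7 CPM in WT M0, 100.5, 102.5 and 107 CPM in WT M2, 80.2, 80.0 and 80.0 CPM in KO M0 and 115, 104 and 105 CPM in KO M2. Both rose in both genotypes, Spcs2 by 0.40 in WT (SE 0.06, edgeR adjusted p = 7.47e-05) and 0.33 in KO (SE 0.06, edgeR adjusted p = 0.00029), and Ssr2 by 0.40 (SE 0.065, edgeR adjusted p = 0.000213) and 0.43 (SE 0.06, edgeR adjusted p = 9.93e-05). Ssr1, another TRAP subunit, was counted at 265, 273 and 286 CPM in WT M0, 304, 322 and 332 CPM in WT M2, 315, 303 and 309 CPM in KO M0 and 327, 323 and 339 CPM in KO M2. It rose in WT by 0.22 (SE 0.05, edgeR adjusted p = 0.00158), and the TRAP subunit Ssr3 rose in WT by 0.21 (SE 0.05, edgeR adjusted p = 0.00264). In KO neither passed without a block (edgeR adjusted p = 0.105 for Ssr1 and 0.0769 for Ssr3), and both did with the mouse as a block (adjusted p = 0.0419 and 0.0307). The last TRAP subunit Ssr4 and the peptidase subunit Spcs1 rose in KO, by 0.16 and 0.15 (edgeR adjusted p = 0.0176 and 0.0339, lost in 2 and 5 of 6 fits without 1 library), and differed by 0.12 and 0.04 in WT. Sec61b and Spcs3 did not pass in either genotype, and Sec61g, with differences of 0.43 in WT (SE 0.28, edgeR adjusted p = 0.232) and 0.50 in KO (SE 0.27, edgeR adjusted p = 0.15), passed in KO with the mouse as a block (adjusted p = 0.046).

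**Figure D2:**
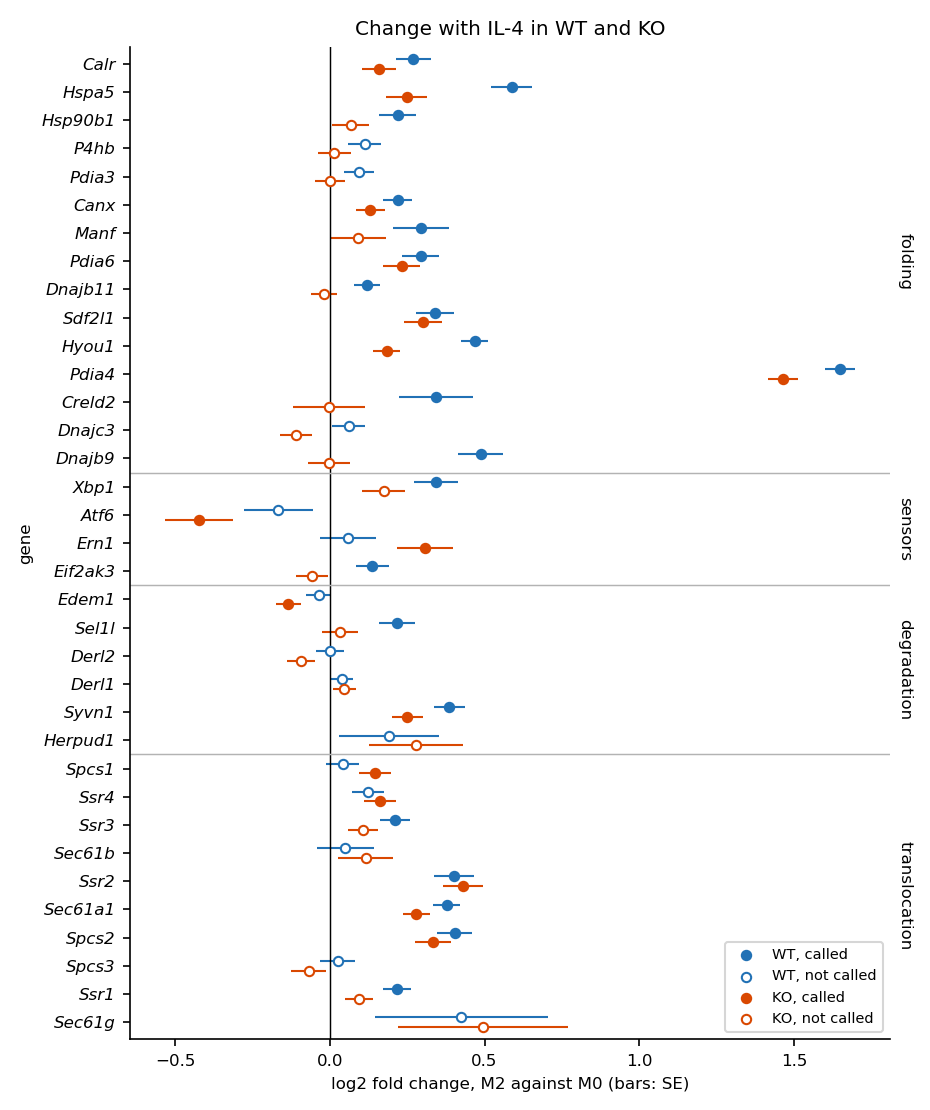
Log2 fold change with IL-4 (M2 against M0) of each gene in WT and KO, with bars for the SE and filled points for an adjusted p under 0.05. Pdia4 stands apart at 1.65 in WT and 1.46 in KO, and all 15 folding genes lie further to the right in WT than in KO.

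In KO macrophages IL-4 raised 14 of the 35 genes and lowered 2, while 26.8% of all genes tested rose and 26% fell. The genes that rose comprised 7 folding genes, 5 translocation genes, Ern1 and Syvn1, and those that fell were Atf6 and Edem1. The median was 0.115, beside 0.014 over all genes tested. The split depended on the scale, since limma on log2(TPM + 1) gave 8 higher and 4 lower, with Derl2 and Dnajc3 among the latter, and a median of 0.033. On that scale 17.8% of all genes were called higher and 45.5% were called in either direction, and the median over all genes tested was -0.055. The calls of Calr, Canx, Ern1, Hyou1, Spcs1 and Ssr4 were lost on that scale. Fits without 1 library called 12 to 15 genes, beside 46% to 48.6% of all genes. They lost Ern1 without KO M2 library 3 (edgeR adjusted p = 0.0544) and Edem1 without KO M0 library 3 (0.0516). With the mouse as a block 19 rose and 2 fell, where 29.4% of all genes rose.

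Without IL-4, KO macrophages had more mRNA than WT for 13 of the 35 genes and less for 0 of them. These were the folding genes Dnajb9, Hyou1, Hspa5, P4hb, Sdf2l1 and Pdia4, the sensors Xbp1 and Eif2ak3, the degradation genes Syvn1, Edem1 and Derl1, and the translocation genes Sec61a1 and Ssr1. Of all genes tested, 5.5% were called higher and 4.27% lower in KO M0. Of the genes with an ERSE, 2 of 8 were among them, and 8 of the same 20 with a window but no ERSE. The median log2 difference was 0.169, beside -0.001 over all genes tested, and 31 of the 35 values were above 0. All 3 KO libraries lay above all 3 WT libraries for 27 of the 35 genes, including 15 of 15 folding genes, a pattern that 16.2% of all genes tested showed. The size was modest, from a log2 fold change of 0.13 to 0.58 among the called genes.

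Dnajb9 had the largest difference, 0.58 (SE 0.07, edgeR adjusted p = 0.000587, 1.49-fold). It was followed by Hyou1 with 0.32 (SE 0.04, edgeR adjusted p = 0.0013), Hspa5 with 0.30 (SE 0.07, edgeR adjusted p = 0.0158), Syvn1 with 0.28 (SE 0.05, edgeR adjusted p = 0.00488) and Xbp1 with 0.27 (SE 0.07, edgeR adjusted p = 0.0323). P4hb differed by 0.24, Sdf2l1 by 0.21, Sec61a1 by 0.20, Eif2ak3 and Pdia4 by 0.19 each, Ssr1 and Edem1 by 0.17 each and Derl1 by 0.13, with edgeR adjusted p from 0.0132 to 0.0498. For Derl1 the values were 126, 126 and 133 CPM in WT M0 against 139, 142 and 140.1 CPM in KO M0, and 129.9, 133 and 132 CPM in WT M2 against 147, 143 and 145 CPM in KO M2. The KO libraries of Derl1 thus lay above the WT libraries in M0 and in M2. Of the genes below 0, Ern1 differed by -0.18 (SE 0.09, edgeR adjusted p = 0.221), Sec61g by -0.33 (SE 0.28, edgeR adjusted p = 0.504), Spcs1 by -0.07 (SE 0.05, edgeR adjusted p = 0.484) and Ssr4 by -0.01 (SE 0.05, edgeR adjusted p = 0.953). Calr, the most abundant member, differed by 0.10 (SE 0.06, edgeR adjusted p = 0.287).

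The number of calls in M0 depended on single libraries. It was 3 without WT library 2 (2.05% of all genes called higher), 3 without KO library 2 (2.31%), 4 without KO library 3 (2.51%), 8 without WT library 1 (5.29%), 8 without KO library 1 (3.45%) and 15 without WT library 3 (6.29%). Dnajb9, Hyou1 and Syvn1 were called in each of these fits, and over all 6 fits the median stayed between 0.157 and 0.189. With limma on log2(TPM + 1), Derl1, Edem1, Eif2ak3, P4hb and Ssr1 were not called. Lyz2, into which Cre was inserted, was counted at 7030 to 10540 CPM in WT M0 and 22.1 to 33.2 CPM in KO M0, so that effects of losing IGF2BP2 and of losing this secreted protein cannot be told apart in these libraries. Of the markers of other cells that could be tested, S100a9 of neutrophils passed the test, with 4.31 CPM in WT M0 and 1.68 CPM in KO M0 (log2 fold change -1.38, edgeR adjusted p = 0.0124), and S100a8, Sdc1, Kit, Zbtb46 and the 4 stromal markers did not. Among the macrophage and IL-4 response markers, Itgam was higher in KO M0 (log2 fold change 0.45, edgeR adjusted p = 0.00396) and Mrc1 lower (-0.86, edgeR adjusted p = 0.000522), and the other 9 were not called. The call of S100a9 was lost in 3 of 6 fits without 1 library (adjusted p up to 0.0696), and Sdc1, with a difference of 0.37 (edgeR adjusted p = 0.0616), passed in 3 of 8 other settings, DESeq2 among them (adjusted p = 0.0259). The 6 markers of neutrophils and precursors summed to 18.1 to 44.4 TPM in WT M0 and 14.4 to 16.0 TPM in KO M0, with Ly6g at 0 in both groups and Elane in KO M0, and the 4 stromal markers summed to 10.8 to 21.3 TPM and 3.38 to 12.5 TPM, with none at 0. Of the plasma cell markers, Sdc1 was at 61 to 81.5 TPM in WT M0 and 84.4 to 113 TPM in KO M0, while Jchain, Mzb1 and Cd79a stayed at or below 0.25 TPM, with Mzb1 at 0 in KO M0. The part of these markers in the differences was not tested.

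With IL-4, 0 of the 35 genes were called between KO and WT, where 1.21% of all genes tested were called higher and 1.46% lower. Without adjustment 6 of 35 genes had a p under 0.05, all higher in KO, beside 2611 of 12846 genes tested with both directions counted together. DESeq2 called 1, Derl1 (adjusted p = 0.00896), where it called 1.54% of all genes higher. Derl1 differed by 0.14 (SE 0.04, edgeR adjusted p = 0.0749), Sec61b by 0.27 (SE 0.09, edgeR adjusted p = 0.128), Syvn1 by 0.15 (SE 0.05, edgeR adjusted p = 0.132), Sdf2l1 by 0.17 (SE 0.06, edgeR adjusted p = 0.148) and P4hb by 0.14 (SE 0.05, edgeR adjusted p = 0.176). The last of the 6 was Sec61a1 with 0.10 (SE 0.04, edgeR adjusted p = 0.209). All 3 KO libraries lay above all 3 WT libraries for 7 of the 35 genes, as was seen for 13.1% of all genes tested. The median difference was 0.036, beside -0.001 over all genes tested. Hspa5 differed by -0.04 (SE 0.07, edgeR adjusted p = 0.79) and Pdia4 by 0.00 (SE 0.05, edgeR adjusted p = 0.979).

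**Figure D3:**
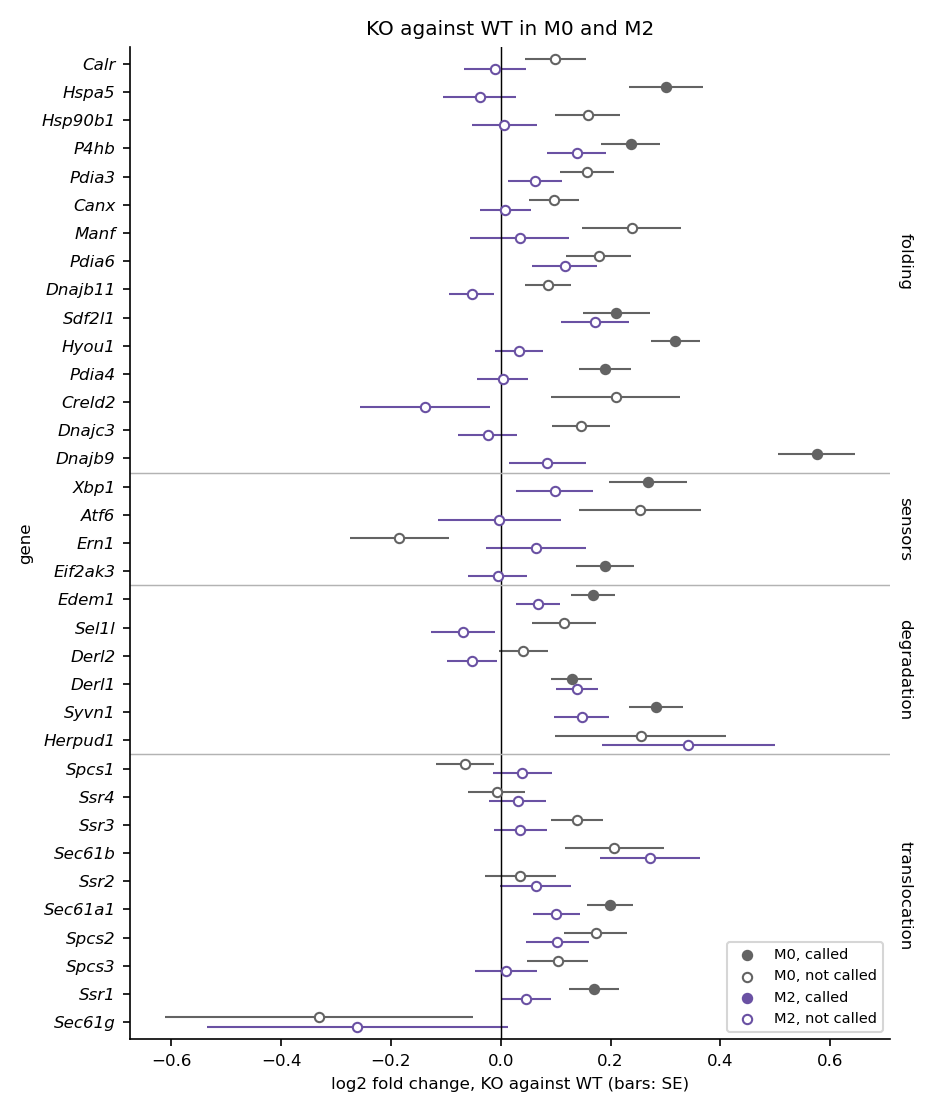
Log2 fold change of KO against WT for each gene in M0 and M2, with bars for the SE and filled points for an adjusted p under 0.05. In M0 13 genes are called and all 15 folding genes lie above 0, while in M2 0 genes are called.

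Whether the response to IL-4 differed between genotypes was tested directly. The difference (change in KO minus change in WT) was called for 2 of the 35 genes, both lower in KO, namely Dnajb9 with -0.49 (SE 0.10, edgeR adjusted p = 0.0209) and Hyou1 with -0.28 (SE 0.06, edgeR adjusted p = 0.0286), while 1.11% of all genes tested were called higher and 2.13% lower. For Hspa5 it was -0.34 (SE 0.09, edgeR adjusted p = 0.0742, with the mouse as a block 0.0428). All 15 folding genes had a value below 0, from -0.04 to -0.49. The median over the 35 genes was -0.100, beside 0.006 over all genes tested, and in translocation it was -0.021. This test uses the same M0 and M2 libraries as the comparisons above and is not independent of them. Both calls were lost without WT M0 library 2, KO M0 library 2 or 3, or KO M2 library 2 or 3, leaving 0 of the 35 genes. That of Hyou1 was lost also without KO M0 library 1 or WT M2 library 2 or 3, leaving 1, and on the log2(TPM + 1) scale. Adjusted p without 1 library reached 0.0648 for Dnajb9 and 0.0835 for Hyou1.

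**Figure D4:**
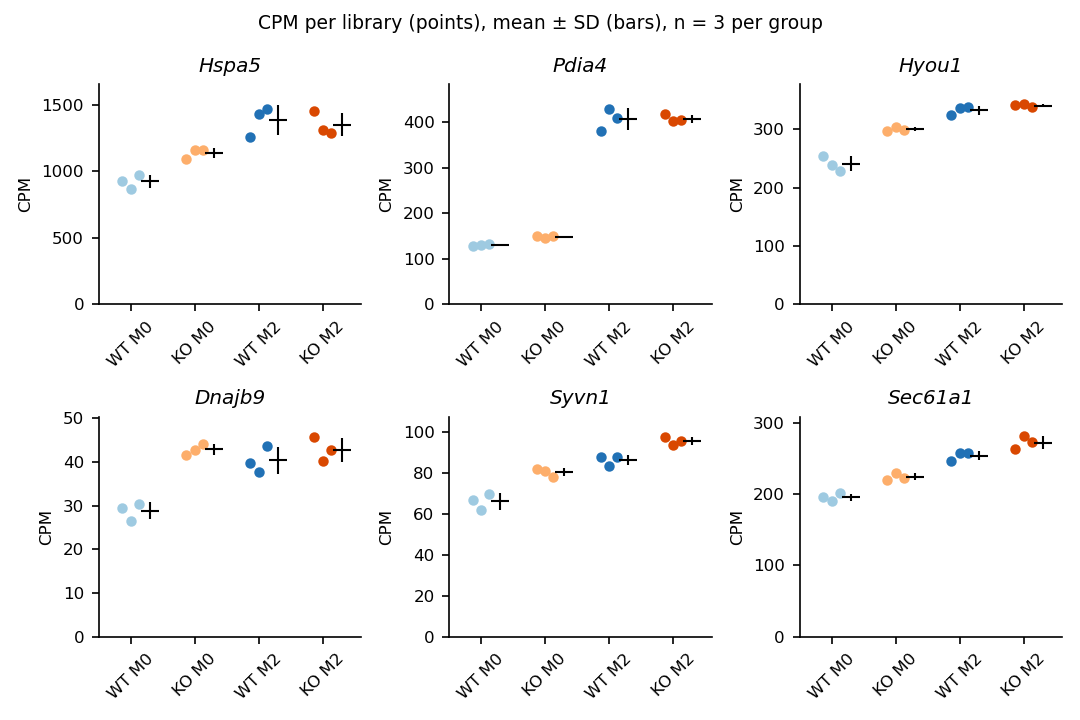
CPM of 6 genes in each library (points) with mean ± SD (bars, n = 3 per group), axes starting at 0. In WT M0 Dnajb9 lies at 26.6 to 30.3 CPM, below the other 3 groups, and the groups of Syvn1 and Sec61a1 are ordered WT M0, KO M0, WT M2 and KO M2.

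The summed TPM of the folding genes shows the same arrangement without the correction for library composition. It was 5435, 5379 and 5100 TPM in WT M0, 5761, 6014 and 6022 TPM in KO M0, 5983, 6454 and 6577 TPM in WT M2 and 6332, 6269 and 6364 TPM in KO M2. WT M0 lay below the other groups and the KO M0 and WT M2 libraries overlapped. The translocation genes summed to 1336, 1346 and 1363 TPM in WT M0, 1416, 1408 and 1432 TPM in KO M0, 1421, 1472 and 1506 TPM in WT M2 and 1515, 1510 and 1537 TPM in KO M2, so that each KO group was above its WT group. In M2, 0 of the 10 translocation genes were called between KO and WT, although 9 had a log2 difference above 0. Sec61b averaged 185 TPM in WT M2 and 218 TPM in KO M2, beside mean sums of 1467 and 1521 TPM. The degradation genes summed to 434 to 461 TPM in WT M0, 486 to 499.6 TPM in KO M0, 445 to 482 TPM in WT M2 and 441 to 483 TPM in KO M2.

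**Figure D5:**
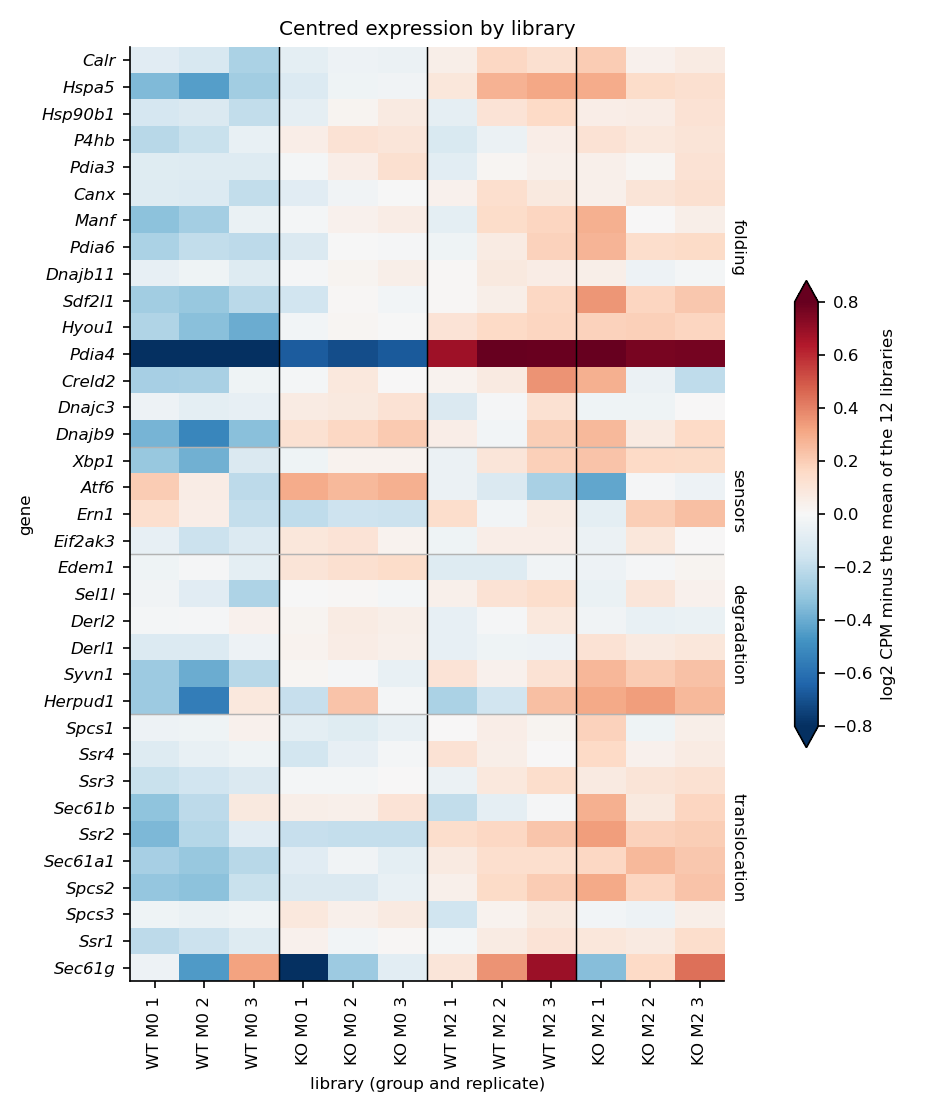
Log2 CPM of each gene minus its mean over the 12 libraries, by library and grouped by role. The WT M0 libraries are mainly blue (below the mean of a gene), Pdia4 spans the whole colour scale, and WT M2 library 1 is the lowest of its group for 30 of 35 genes.

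Further genes of these pathways were taken as a list of 80, of which 79 passed the filter on low counts. IL-4 raised 29 of the 79 and lowered 8 in WT, where 24.9% and 25.1% of all genes tested rose and fell, and raised 29 and lowered 7 in KO, beside 26.8% and 26%. The medians were 0.093 and 0.070. Of 11 further stress factors, 7 rose in each genotype and 0 fell. Ddit3, the stress-induced transcription factor CHOP downstream of PERK, rose from 8.7 to 16.2 CPM in WT (log2 fold change 0.90, edgeR adjusted p = 3.22e-06) and from 9.62 to 18.7 CPM in KO (0.95, edgeR adjusted p = 9.69e-07), and Ppp1r15a, which reverses the block of translation, rose by 0.67 in WT (edgeR adjusted p = 0.000127). Creb3, an ER-bound transcription factor, rose by 0.68 in KO (edgeR adjusted p = 1.66e-06). Ppp1r15a was also called higher in KO, and Creb3 also in WT. Among 21 further folding genes 8 rose in each genotype, led in WT by Txndc11 (0.51) and Erp29 (0.41) and in KO by Selenos (0.42) and Erp29 (0.33). Hspa13, an HSP70 of the ER, fell by 0.54 on the log2 scale in WT and 0.55 in KO. Prdx4, an ER peroxidase, fell by 0.45 in WT, and Ero1b, an oxidase that recharges disulfide isomerases, fell by 0.60 in KO, so that folding genes moved in both directions. Ero1b was also called lower in WT.

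Of 27 further translocation and N-glycosylation genes, 8 rose in each genotype, and of 20 further degradation genes 6, shares near those of all genes tested. They were led by Stt3b, a catalytic subunit of the enzyme that attaches N-glycans (0.58 in WT, 0.54 in KO), and by Srp72, a subunit of the signal recognition particle (0.48 and 0.33). Tram2, a helper of the channel, fell by 0.36 in WT and 0.56 in KO, Krtcap2 fell by 0.36 in WT, and Sec11c, a catalytic subunit of signal peptidase, fell by 0.22 in KO. The degradation genes that rose were led by Aup1 (0.22) and Hm13 (0.20) in WT and by Ube2j2 (0.32) and Ube2g2 (0.23) in KO, and Rnf139 fell by 0.23 in WT and 0.18 in KO. Rnf5 fell by 0.26 in WT and Ube2j1, an enzyme that conjugates ubiquitin, by 0.22 in KO. Ube2j1 was also called lower in WT.

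Between KO and WT in M0, 9 of the 79 further genes were called higher and 0 lower, where 5.5% and 4.27% of all genes tested were, with a median of 0.086. Ppp1r15a had the largest difference with 0.49 (SE 0.10, edgeR adjusted p = 0.0101). It was followed by Txndc11 with 0.35 (SE 0.05, edgeR adjusted p = 0.00182), Ero1b with 0.33 (SE 0.08, edgeR adjusted p = 0.0251), Rpn1, a subunit of the N-glycan transferase, with 0.26 (SE 0.06, edgeR adjusted p = 0.0169), Erp44 and Herpud2 with 0.21 each, Edem2 and Hm13 with 0.19 each and Stt3a with 0.17, where Erp44 and Hm13 lie outside the rule for named genes and complete the 9. Txndc11 kept its call in all 6 fits without 1 library, Ppp1r15a in 5, and the other 7 lost theirs in 3 to 6 of them. With IL-4, 0 of 79 were called between KO and WT and 17 had an unadjusted p under 0.05, close to the share of all genes tested (2611 of 12846), and the difference between the responses was called for 0, with 9 at an unadjusted p under 0.05, beside 2290 of 12846 genes.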

How the data were processed

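Poly(A) RNA of 12 macrophage libraries was sequenced as single reads of 75 nt. The authors aligned reads to GRCm38/mm10 with the Grape-nf pipeline and deposited, per library, expected counts and TPM for each gene. The quantifier and its strand setting are not given in the sources used here. Their DESeq2 (1.40.2) tables hold fold changes and p-values of their own comparisons, and only identifiers and symbols were read from them. Expected counts, of which libraries held 20011792 to 39632770, were rounded and tested with edgeR (4.0.16, R 4.3.3) by quasi-likelihood F tests with filterByExpr and TMM factors over all 12 libraries and 12846 genes, with Benjamini-Hochberg adjustment and calls at an adjusted p under 0.05. The biological coefficient of variation was 8.08%. SE is the fold change divided by the root of F. CPM used TMM factors. Scripts were tested on simulated data.

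Alternatives were DESeq2 (1.42.0), RLE factors, other filters, limma (3.58.1) with trend on log2(TPM + 1) or log2(TPM + 0.1), fits of the compared libraries alone, leaving out each library, and a replicate block. Libraries of 1 genotype with the same number deviated together between M0 and M2, with correlations of 0.103 to 0.364, so the number was taken to mark the mouse. Same-numbered WT and KO libraries did not (-0.068 to 0.04). The main fit used the groups only, and the pairing of M0 and M2 libraries entered only through the block. Per the study, each group came from 3 mice.

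The rule for the 35 genes uses no measured value, but members and lists were chosen with earlier results of these data known. All 35 genes were described. Values per library were given for those called between genotypes or in the difference of responses and for the top 2 called IL-4 changes of each role in WT. Of other pathway genes, up to 2 called per role, direction and comparison were named, with a mean of at least 5 CPM. Protein sequences were not analysed here, and 1 cell type marker is not reported here.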

Additional observations from a re-analysis of the deposited data

Results flagged for a closer look

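Dnajb9 and Hyou1 stood out because their response to IL-4 differed between KO and WT in a test of the difference itself. The change with IL-4 of Dnajb9 was lower in KO, with a difference of -0.490 on the log2 scale (SE 0.10, edgeR adjusted p = 0.0209), and its mean level was 28.8 CPM in WT M0, 40.4 CPM in WT M2, 42.9 CPM in KO M0 and 42.8 CPM in KO M2. For Hyou1 the difference was -0.284 (SE 0.06, edgeR adjusted p = 0.0286), with means of 241 CPM in WT M0, 333 CPM in WT M2, 299.9 CPM in KO M0 and 340.6 CPM in KO M2. Between genotypes the M0 levels were apart, whereas the M2 levels differed by 0.09 and 0.03 on the log2 scale. Both values were below 0 in every fit without 1 library, although the calls were lost in 5 and 8 of 12 such fits.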

How the results depend on the processing

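The count of called genes with IL-4 stayed within 1.5 times its value of 21 in WT and 16 in KO under each alternative run. It was 16 to 22 in WT and 12 to 21 in KO, and 18 to 22 and 12 to 15 without 1 library. The share of all genes called was 29.3% to 55.4% in WT and 31.3% to 59.5% in KO. Without 1 library it was 42.7% to 47.3% and 46% to 48.6%. For KO against WT in M0 the 13 calls (5.5% of all genes higher) became 8 with limma on log2(TPM + 0.1) (3.01%), 7 with the compared libraries alone (4.23%), 18 with DESeq2 (4.58%), and 3 to 15 without 1 library. In the fit of the compared libraries alone Derl1, Edem1, Eif2ak3, Sdf2l1, Ssr1 and Xbp1 lost their M0 calls, and Dnajb11 and Eif2ak3 their calls with IL-4 in WT. In M2 the 0 calls became 1 with DESeq2 (1.54% of all genes higher). The 2 calls for the difference between the responses (3.24% of all genes called) became 1 with either limma scale (0.88%) and 3 with DESeq2 (3.99%). Without 1 library there were 0 to 3 (1.41% to 4.95% of all genes). The causes of these changes were not tested, and the fits that leave libraries out also hold fewer of them.

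With the replicate block, IL-4 had 21 called genes in each genotype (54.6% of all genes in WT and 58.2% in KO). The responses differed for 3 (7.81% of all genes). For KO against WT, where the numbers did not pair the libraries, the block gave 11 calls in M0 and 0 in M2. Of all genes it called 10.3% in M0 and 3.22% in M2. In M0 Derl1, Eif2ak3 and Sdf2l1 lost their calls with it, and Pdia3 was gained. No called gene changed direction under any alternative run. The SE was largest for Sec61g, the lowest of the 35 genes in TPM.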
